A study of Rattus norvegicus with 12 samples.

Results

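The genes described here are 10 rat genes of lipid-handling macrophages and of cholesterol export: the apolipoproteins Apoe, Apoc1 and Clu, the transporters Abca1 and Abcg1, the macrophage proteins Trem2, Gpnmb, Lgals3 and Spp1, and the lipase Lpl. They were found by the RefSeq accessions of the array's probes, as 10 probes, 1 for each gene, among 18006 probes that could be given 1 of 15159 gene names. The list was drawn up with the nerve ratios of these arrays already known, so the nerve values below describe the genes and test nothing. All 10 were well above background on all 12 arrays.

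Female rats of 8 weeks received 50 µg of the myelin basic protein peptide MBP84-104 in 5 µL into the left sciatic nerve, and the study asked how this changed gene expression in nerve, dorsal root ganglia (DRG) and dorsal spinal cord. Wild-type rats were Sprague-Dawley according to the sample labels and were taken 12 days after injection. Athymic nude rats were Hsd:RH-Foxn1rnu (rnu-/-), lack a thymus and so mature T cells, and were taken at 7 days, so that rat type, strain and day cannot be told apart. The paper differs from the labels on these points: it names heterozygous rnu+/- rats in place of Sprague-Dawley rats, the same day for both rat types, and more rats per group than the labelled pool. The labels are followed here, and if the day was the same, rat type and strain still cannot be told apart. In each rat type, 1 array was hybridised with the injected left nerve and 1 with the right nerve, which had received PBS. Likewise 1 array held the left and 1 the right DRG, and 1 array held the dorsal cord of the lumbar enlargement and 1 the dorsal cord above it. Each array carried a pool of 3 rats. With 1 array per condition, no difference has a replicate check and no p-value is given. In pooled tissue RNA, fewer cells of a type and less RNA per cell cannot be told apart.

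Macrophages that clear myelin take up large amounts of cholesterol, which they cannot break down. They store it as esters, or pass it through the membrane transporters Abca1 and Abcg1 to apolipoproteins such as Apoe, which carry it to other cells. The nuclear receptors LXR sense oxidised sterols and switch on Abca1, Abcg1, Apoe and Apoc1, whereas Trem2 is a surface receptor that recognises lipids and apolipoproteins and is needed for macrophages and microglia to adapt to a lipid load.

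Values are log2 fluorescence of a probe minus the median of its array, called the level below. A level of 3 is therefore 8 times the array's median probe. Levels are compared only within a gene, because the brightness of different probes cannot be set against each other. The error given with a ratio is the standard error (SE) from repeated spots of the probe on the same arrays, which covers spot noise only. Median signals ranged from 15.4 units on the injected nude nerve array to 74.9 units, and the former was dim against 49.0 for the contralateral nude nerve. Over all genes the median log2 ratio was -0.38 in nude nerve, against -0.05 in wild-type nerve and values between -0.07 and 0.02 in the other 4 comparisons. Nude nerve ratios relative to that shift are therefore given below for Abca1, Abcg1, Spp1 and Lpl. For the other genes these log2 values were 1.97 (Apoe), 2.77 (Apoc1), 1.25 (Clu), 1.96 (Trem2), 1.82 (Gpnmb) and 0.90 (Lgals3).

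Promoters of 3 genes are shown, since these genes were higher in both injected nerves and their promoters held a match to a motif of the factors searched. Of the 10 genes, 6 matched the RefSeq promoter table (GRCr8), with 9 entries in all. These were searched on both strands over the 250 bases before the start of each entry, and the first entry of a gene is shown. For Apoe, Apoc1 and Spp1, also searched, none of the motifs below was found. The motifs were the LXR repeat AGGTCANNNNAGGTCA (exact, and with up to 3 mismatches in its 12 fixed letters), its half-site AGGTCA, which also lies within the repeat, the M-box TCATGTGA of the Mitf family, the E-box CACGTG and the AP-1 site TGANTCA. Capitals mark matches, read 5′ to 3′ along the gene's strand.
Abca1 (chr5:72596474-72596723, minus strand): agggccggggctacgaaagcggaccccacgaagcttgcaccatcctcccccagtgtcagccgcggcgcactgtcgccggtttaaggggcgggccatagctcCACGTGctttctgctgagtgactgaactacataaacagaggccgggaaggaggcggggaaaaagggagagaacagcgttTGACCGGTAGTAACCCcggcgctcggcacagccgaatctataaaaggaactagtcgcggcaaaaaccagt
Gpnmb (chr4:79340878-79341127, plus strand): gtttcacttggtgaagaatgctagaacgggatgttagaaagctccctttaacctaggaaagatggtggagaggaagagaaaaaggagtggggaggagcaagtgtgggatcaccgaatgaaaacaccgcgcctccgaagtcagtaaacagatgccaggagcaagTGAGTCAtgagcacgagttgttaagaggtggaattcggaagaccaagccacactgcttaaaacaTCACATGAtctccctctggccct
Trem2 (chr9:20151780-20152029, minus strand): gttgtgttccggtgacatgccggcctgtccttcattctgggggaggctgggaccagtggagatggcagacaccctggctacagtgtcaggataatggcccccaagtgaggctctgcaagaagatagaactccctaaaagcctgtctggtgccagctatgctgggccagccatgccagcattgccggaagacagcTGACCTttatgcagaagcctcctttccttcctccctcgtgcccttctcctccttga
The Abca1 window held the repeat with mismatches on the opposite strand, starting 70 bases before the start of its entry, and an E-box at 149 bases. The annotated span of Abca1 ends at base 72596563, inside the window, and takes in the repeat. The number of mismatches was set with this window in view, and at that setting 18.6% of 33469 promoters held the repeat. The exact repeat occurred in 0.00299% of promoters and in none of these windows. Gpnmb held an M-box on the opposite strand at 23 bases and an AP-1 site at 87 bases, motifs found in 0.977% and 6.34% of promoters. Trem2 held the half-site on the opposite strand at 56 bases, as 14.1% of promoters did, and the E-box occurred in 5.59%. These are matches of letters and were not tested as sites.

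In the wild-type nerve, 7 of the 10 genes were at least 2-fold higher on the injected side and 1, Lpl, was at least 2-fold lower. Over all 10213 genes measured there, 4.68% were at least 2-fold higher and 4.08% lower. In the nude nerve, 5 were higher by that margin and Lpl was again lower, against 7.52% and 13.5% of 9456 genes. The 10 genes had a median log2 ratio of 1.89 in wild-type nerve and 1.15 in nude nerve. Since the genes were chosen on this contrast, these counts say only what the list holds.

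**Figure D1:**
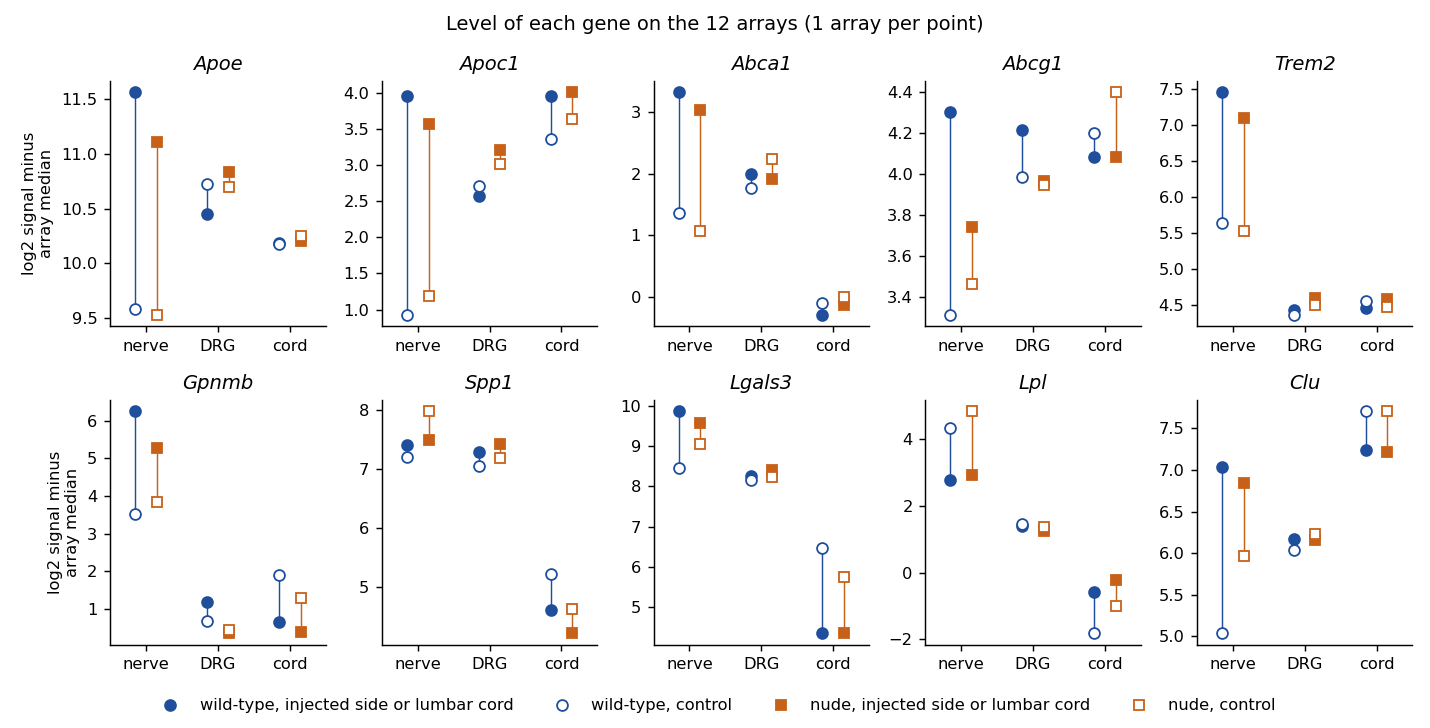
Level (log2 signal minus the array median, y axis) of each gene on the 12 arrays, by tissue (x axis), with 1 array per point; filled points are the injected side or the lumbar cord, open points the control, circles wild-type and squares nude rats, and lines join the arrays compared. Each panel has its own y axis, which does not start at 0. Filled points stand above open ones in the nerve for 8 genes in both rat types, and below them for Lpl.

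Apoe, the main cholesterol carrier made by macrophages and glia, had levels of 9.58 and 9.53 in the contralateral nerves of wild-type and nude rats and of 11.57 and 11.11 in the injected nerves. Both injected nerves were the highest of all 12 arrays. The ratio was 3.96-fold (log2 1.99, SE 0.06) in wild-type and 2.99-fold (log2 1.58, SE 0.07) in nude nerve. DRG levels lay between 10.45 and 10.83 and cord levels between 10.17 and 10.25, above both contralateral nerves.

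Apoc1, a small apolipoprotein encoded beside Apoe on chromosome 1, had the highest nerve ratio of the 10 genes in both rat types. Its level went from 0.93 to 3.96 in wild-type nerve and from 1.18 to 3.57 in nude nerve. That is 8.21-fold (log2 3.04, SE 0.03) and 5.23-fold (log2 2.39, SE 0.04), which placed it 19th of 10213 genes and 49th of 9456. The contralateral nerves held the lowest levels of Apoc1 on any array, and the injected nerves came up to the range of the cord, 3.36 to 4.01.

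Clu, or clusterin, is a lipid-binding chaperone of the extracellular space. Its level was 5.03 in the contralateral and 7.04 in the injected wild-type nerve, a ratio of 4.01-fold (SE 0.03 in log2). The nude nerves were at 5.97 and 6.84, a ratio of 1.83-fold (log2 0.87, SE 0.02). The nude ratio was at least 2-fold in 4 of 11 other settings, with log2 values from 1.02 to 1.16, and fell below 0 in 1, normexp. The contralateral nerves themselves differed by 0.94 in log2, nude above wild-type, which was the largest difference of any of these genes between those arrays. Clu was also the only one of the 10 whose 4 cord levels, 7.22 to 7.71, all exceeded those of the other 8 arrays, as did 19.4% of 7950 genes well above background throughout.

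Abca1, whose promoter window held the repeat with mismatches, loads cholesterol and phospholipid onto lipid-poor apolipoproteins. Its level went from 1.36 to 3.32 in wild-type nerve and from 1.07 to 3.03 in nude nerve. The ratios were 3.89-fold (log2 1.96, SE 0.16) and 3.91-fold (log2 1.97, SE 0.04), and Abca1 was the only gene of the 10 whose ratio was not larger in the wild-type nerve. Relative to the all-gene median, its log2 ratio was 2.01 in wild-type and 2.35 in nude nerve. The cord arrays were the lowest, between -0.29 and 0.0043.

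Abcg1, which passes cholesterol to particles that already hold lipid, differed less between sides. It was at 3.31 and 4.30 in wild-type nerve, 1.98-fold (log2 0.99, SE 0.11), and at 3.47 and 3.74 in nude nerve, 1.21-fold (log2 0.27, SE 0.12). The wild-type ratio lay just under the 2-fold line and above it in 4 of 11 other settings, with a range from 0.87 to 1.11. The nude ratio was 0.66 relative to the all-gene shift.

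Trem2 was measured by 1 spot on each array, so it has no spot error. Its level was 5.65 and 7.46 in the contralateral and injected wild-type nerve, and 5.53 and 7.10 in the nude nerves. The ratios were 3.51-fold (log2 1.81) and 2.98-fold (log2 1.58). All 4 nerve levels exceeded the other 8 arrays, where Trem2 stayed between 4.37 and 4.60. Gpnmb, Lgals3 and Lpl shared that pattern, which 22.7% of the 7950 genes showed.

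Gpnmb, a lysosome-linked glycoprotein of lipid-laden macrophages and the gene with the M-box match, went from 3.51 to 6.27 in wild-type nerve and from 3.83 to 5.27 in nude nerve. These are ratios of 6.77-fold (log2 2.76, SE 0.0050) and 2.71-fold (log2 1.44, SE 0.07). Its log2 ratio differed by 1.32 between rat types, the most of the 10 genes, where the median difference over 9399 genes was 0.35. Only 1.36% of those genes had a difference at least as large.

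Lgals3 encodes galectin-3, a sugar-binding protein of activated macrophages. It was at 8.45 and 9.88 in wild-type nerve, 2.68-fold (log2 1.42, SE 0.04), and at 9.06 and 9.57 in nude nerve, 1.43-fold (log2 0.52, SE 0.03). Spp1 encodes osteopontin, a secreted adhesion protein, and differed by less than 2-fold between sides, with levels of 7.20 and 7.41 in wild-type and 7.99 and 7.49 in nude nerve. Its log2 ratios were 0.21 (SE 0.02) and -0.50 (SE 0.02), the latter -0.12 after the all-gene shift and -1.67 with normexp. The contralateral nude nerve held the highest Spp1 level of all 12 arrays.

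Lpl hydrolyses the triglyceride of lipoproteins and was the only one of the 10 genes below its control in both nerves. Its level fell from 4.32 to 2.76 in wild-type nerve, 2.96-fold lower (log2 -1.57, SE 0.04), and from 4.85 to 2.93 in nude nerve, 3.79-fold lower (log2 -1.92, SE 0.04). Relative to the all-gene median, its log2 ratio was -1.51 in wild-type and -1.54 in nude nerve. Even so, the injected nerves stayed above every DRG array, at 1.25 to 1.46, and every cord array, at -1.82 to -0.22. On the array of the wild-type cord above the lumbar level, 8 of its 9 usable spots were well above background.

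**Figure D2:**
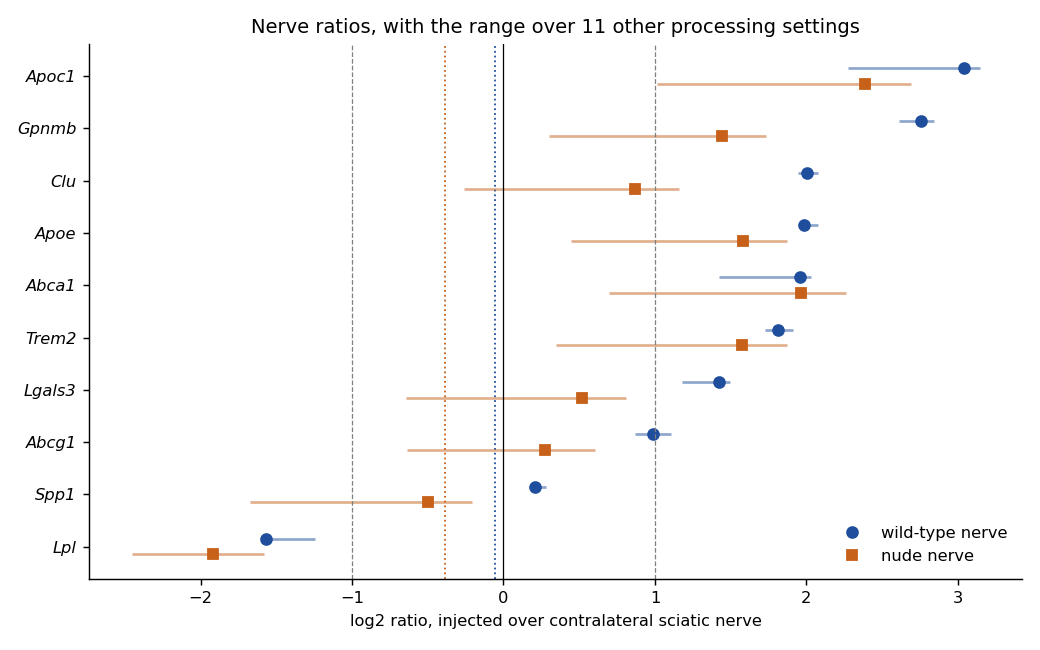
Log2 ratio of injected over contralateral nerve (x axis) for each gene (y axis), wild-type as circles and nude as squares, with lines for the range over 11 other processing settings, dotted lines at the median of all genes and dashed lines at 2-fold. Nude nerve ranges are wide and reach down to log2 -1.67 for Spp1, -0.64 for Lgals3 and Abcg1 and -0.26 for Clu.

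Normexp background correction moved the nude nerve most. With it the median of all genes there fell to -0.87, the 10 genes had a median of 0.02, and only Apoc1 remained at least 2-fold higher (log2 1.02). Abcg1, Lgals3 and Clu then had ratios below 0, of -0.64, -0.64 and -0.26, above the median of all genes. Spp1 went to -1.67, more than 2-fold lower and below that median, and Lpl to -2.46. In the wild-type nerve the same setting left 7 genes at least 2-fold higher, with a median of 1.64.

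Both injected nerves were above both contralateral nerves for 8 of the 10 genes, and below them for Lpl. Over the 7950 genes these patterns held for 16.1% and 44.5%. Of the 10 genes, 9 had a larger log2 ratio in wild-type than in nude nerve, and 8 exceeded the median difference of all genes. The exceptions to the latter were Abca1 (-0.01) and Trem2 (0.24), while Lpl (0.36) and Apoe (0.40) lay close to that median (0.35). A larger ratio in wild-type nerve was common, since 75.3% of 9399 genes had a difference at least as high as that of Abca1.

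**Figure D3:**
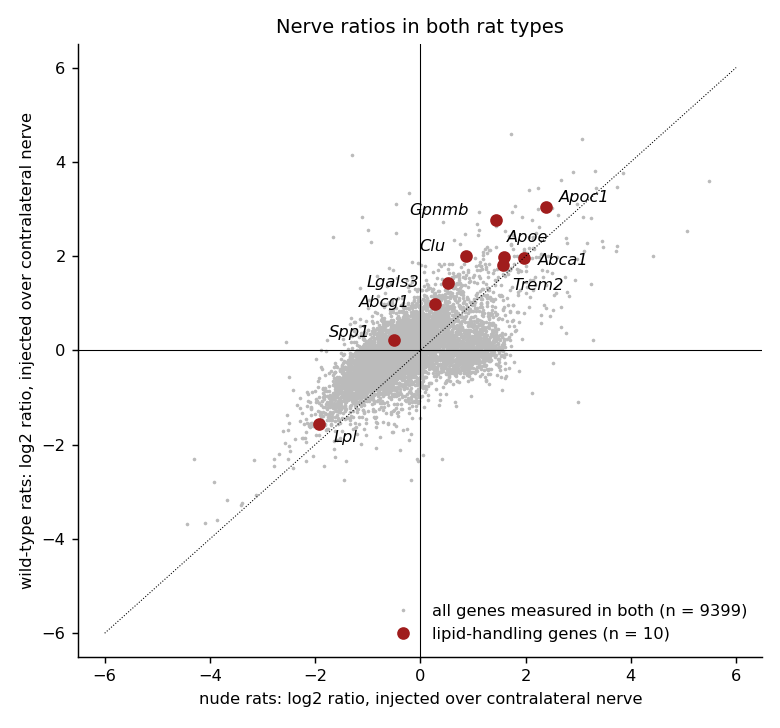
Log2 ratio of injected over contralateral nerve in nude (x axis) and wild-type rats (y axis) for 9399 genes (grey) and the 10 lipid-handling genes (red), with the line of equal ratios dotted. Gpnmb and Clu lie farthest above the line among the 10, and Abca1 lies on it.

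Lists of related genes were drawn up with earlier results of these arrays known, and are described by counts, to be read against the shares of all genes at least 2-fold higher and lower, 4.68% and 4.08% in wild-type and 7.52% and 13.5% in nude nerve. Of 15 other genes of cholesterol export and LXR signalling, 1 was at least 2-fold higher in the wild-type nerve, the HDL receptor Scarb1 (2.21-fold), and none was lower; the list's median log2 ratio, -0.01, was near that of all genes. In the nude nerve 1 was higher and 2 lower. Of 8 other apolipoproteins and remodelling genes measured in wild-type nerve, 1 was higher, the phospholipid transfer protein Pltp (2.40-fold), and 1 lower, Apoc3 (2.93-fold). Apod was at a log2 ratio of 0.83 in wild-type and 1.05 in nude nerve.

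Among 15 genes of Trem2 partners and phagocyte state, 5 were at least 2-fold higher in wild-type nerve and 3 in nude nerve, with none lower in either. They included the receptor Clec7a (4.79-fold), Cd68 (2.41-fold) and the Trem2 adaptor Tyrobp (2.32-fold) in wild-type nerve, of which Clec7a had a log2 ratio of 1.72 in nude nerve. Of 20 lysosome and lipid storage genes, 5 were higher in wild-type and 0 in nude nerve. The cholesteryl ester hydrolase Nceh1 was 3.00-fold higher in wild-type nerve (log2 1.59) but had a log2 ratio of -0.82 in nude nerve, whereas the proteases Lgmn and Ctsd were above 0 in both. Of 10 scavenger and uptake receptors, 3 were higher in wild-type nerve, among them Cxcl16 (2.49-fold) and Scara3 (2.48-fold).

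Cholesterol synthesis went the other way. Of 15 genes measured in each nerve, 11 were at least 2-fold lower in wild-type and 13 in nude nerve, and none was above 0. Hmgcs1 was 3.47-fold, Idi1 2.95-fold and Sc5d 2.76-fold lower in wild-type nerve. For the 5 genes of Lpl maturation and regulation measured in the nerve, the capillary anchor Gpihbp1 was 6.97-fold higher in wild-type nerve and at log2 3.23 in nude nerve. Angptl4, an inhibitor of Lpl, had log2 ratios of 1.83 and 0.36, and the fat lipase Pnpla2 had -1.53 and -2.49. Among 8 galectins and osteopontin receptors, 2 were at least 2-fold higher and 0 lower in wild-type nerve, and 2 were higher and 2 lower in nude nerve. Lgals3bp was at log2 ratios of 1.26 in wild-type and 0.51 in nude nerve, the hyaluronan and osteopontin receptor Cd44 at 1.15 and 1.51, and Lgals9 at 0.85 and 1.19. The 2 lower in nude nerve were the integrin Itgb5, at -0.70 and -1.33, and Lgals8, at -0.67 and -1.29. Of 6 lipoprotein receptors measured, 0 were at least 2-fold higher and 1 lower in wild-type nerve; Lrp1, a receptor of Apoe, had log2 ratios of 0.61 and 0.59.

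**Figure D4:**
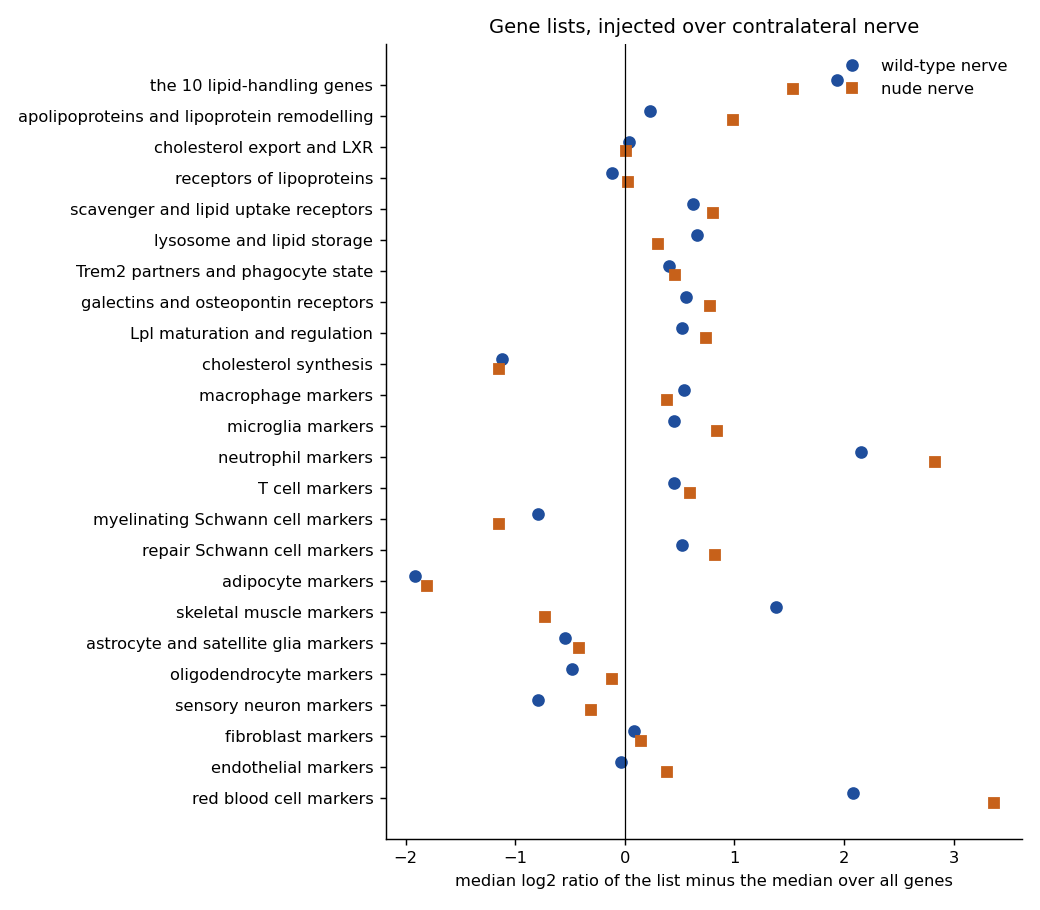
Median log2 ratio of injected over contralateral nerve minus the median of all genes (x axis) for the 10 lipid-handling genes and 23 gene lists (y axis), wild-type as circles and nude as squares. Cholesterol synthesis, at -1.12 and -1.15, and adipocyte markers, at -1.92 and -1.80, lie lowest, and red blood cell and neutrophil markers highest in both. In wild-type nerve the neutrophil markers S100a8, Cxcr2 and Camp were well above background only on the injected array, so their ratios could only be above 0.

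Markers of several cell types moved in the same nerves, and their part in the ratios was not tested. Counts at least 2-fold are again to be read against 4.68% higher and 4.08% lower of all genes in wild-type nerve, and 7.52% and 13.5% in nude nerve. All 17 macrophage markers had ratios above 0 in the wild-type nerve, 4 of them at least 2-fold. In the nude nerve 8 of 16 measured were above 0 and none was at least 2-fold higher. Over all genes, 44.7% in wild-type and 28.1% in nude nerve had ratios above 0. The median log2 ratio of the macrophage markers was 0.54 above that of all genes in wild-type and 0.39 above it in nude nerve. Their summed level, in multiples of the array median, went from 2648 to 4297 in wild-type and from 3064 to 3236 in nude nerve. Among the defining markers Cd68, Aif1, Csf1r, Itgam and Adgre1, log2 ratios ran from 0.32 to 1.27 in wild-type and from -0.55 to 0.40 in nude nerve. Each of these 5 was well above background on all 12 arrays. Adipocyte markers, of cells that make much Lpl, were at least 2-fold lower for 8 of 9 measured in wild-type and 7 of 8 in nude nerve. Their summed level went from 1064 to 481 and from 956 to 389. Adipoq had log2 ratios of -3.06 and -3.12, Lep was well above background on none of the nerve arrays, and Cidec and Pck1 were not well above it in the injected nerves. Where Cidec or Pck1 was counted, its ratio could therefore only be below 0. Red blood cell markers were at least 2-fold higher for 4 of 4 and 3 of 3 measured, with summed levels from 2253 to 9277 and from 1797 to 14914. Slc4a1 was not well above background in the contralateral wild-type nerve, so its ratio there could only be above 0. It was also not well above background in the injected nude nerve and has no ratio there. Myelinating Schwann cell markers were at least 2-fold lower for 3 of 9 in wild-type and 6 of 9 in nude nerve, with summed levels from 9494 to 6741 and from 8783 to 7870 and all 9 well above background on the nerve arrays. Neutrophil markers were higher for 2 of 4 and 2 of 2 measured, with summed levels from 1.99 to 12.6 and from 2.22 to 7.86, while Elane, Ltf and Csf3r were well above background on no nerve array. In wild-type nerve S100a8, Cxcr2 and Camp were well above background only on the injected array, so their ratios could only be above 0. S100a9 was well above it on all nerve arrays, with log2 ratios of 3.44 in wild-type and 2.23 in nude nerve. Skeletal muscle markers were at least 2-fold higher for 7 of 11 measured in wild-type nerve and lower for 5 of 9 in nude nerve. Among the latter, Ckm, Myl11 and Atp2a1 were not well above background in the injected nude nerve, so their ratios could only be below 0.

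In the DRG none of the 10 genes reached 2-fold in either direction. Over all genes 0.489% were at least 2-fold higher and 0.517% lower in wild-type DRG, and 0.682% and 0.388% in nude DRG. Log2 ratios of the 10 lay between -0.27 and 0.51 in wild-type and between -0.32 and 0.23 in nude DRG. The largest was Gpnmb in wild-type DRG, with levels of 0.67 and 1.19, but in nude DRG it was at 0.44 and 0.35. Spp1 was above its control in both DRG pairs, at 7.28 over 7.05 and 7.42 over 7.19, with a log2 ratio of 0.23 in each. Both injected-side arrays were above both contralateral arrays for 2 of the 10 genes, Spp1 and Lgals3, and below for none, against 11.4% and 8.4% of all genes.

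In the dorsal cord the compared arrays are different levels of the cord, so that the injection and the level of the cord cannot be told apart. At least 2-fold lower in the lumbar cord were Lgals3 and Gpnmb in wild-type rats and Lgals3 in nude rats, against 0.831% and 0.589% of all genes. Lgals3 was at 4.36 in both lumbar arrays and at 6.48 and 5.74 above, which is 4.36-fold lower in wild-type (log2 -2.12, SE 0.05) and 2.60-fold lower in nude cord (log2 -1.38, SE 0.04). It ranked 3rd lowest of 11065 genes in the wild-type cord and 20th lowest of 10689 in the nude cord. Gpnmb was at 0.65 and 0.38 in the lumbar arrays and at 1.90 and 1.29 above, with log2 ratios of -1.25 and -0.91. With normexp the wild-type ratio of Gpnmb was -0.98, short of 2-fold.

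Lpl was the only one of the 10 at least 2-fold higher in the lumbar cord, and only in wild-type rats, against 0.913% of genes there and 0.776% in nude cord. Its levels were -0.59 over -1.82 in wild-type (log2 1.23, SE 0.13) and -0.22 over -1.02 in nude cord (log2 0.79, SE 0.09). These are its dimmest values, and the wild-type ratio was 0.41 after normexp. Apoc1 had log2 ratios of 0.59 and 0.37, Spp1 of -0.60 and -0.41, and Clu of -0.47 and -0.50. Both lumbar arrays were above both arrays of the cord above for 2 of the 10 genes, Apoc1 and Lpl, and below for 6, against 12.5% and 39.3% of all genes. Apoe had ratios of 0.01 and -0.05. Myelinating Schwann cell markers moved in the same arrays, with 6 of 9 at least 2-fold higher in wild-type and 5 of 9 in nude lumbar cord, and a summed level from 3133 to 4667 and from 4802 to 4740. Their part in the cord ratios was not tested. Macrophage markers had no gene at least 2-fold different in the cord, with summed levels between 434 and 496.

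**Figure D5:**
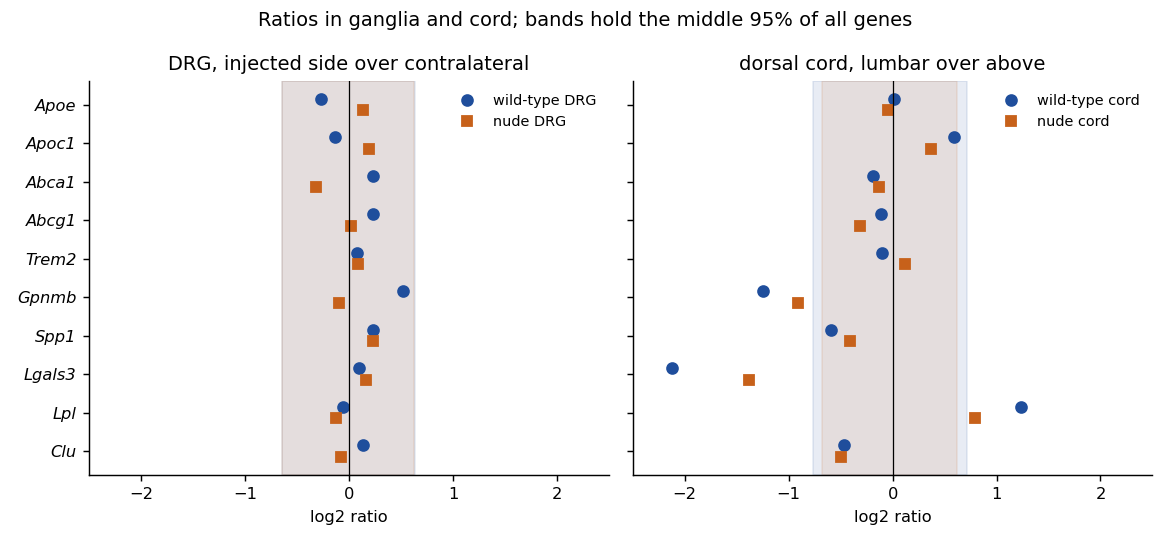
Log2 ratio (x axis) of each gene (y axis) in the DRG, injected over contralateral side, and in the dorsal cord, lumbar over above, wild-type as circles and nude as squares, with bands for the middle 95% of all genes in each comparison. All DRG values lie within the bands, and Lgals3, Gpnmb and Lpl lie outside them in the cord of both rat types.

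Across tissues the genes did not share 1 pattern. Abca1, Spp1, Lgals3 and Lpl had all 4 cord levels below the other 8 arrays, as 21% of all genes did. None of the 10 had all 4 nerve levels below the other arrays, against 5.92% of genes. None had all 4 DRG levels above or below the other arrays, against 2.36% and 11% of genes. Over the 12 arrays, which share tissue and side, Gpnmb followed Trem2 with a Pearson r of 0.96 and Spp1 followed Lgals3 with 0.95, while Lpl and Clu had an r of -0.77. Among 7940 other genes, the one most like Gpnmb was the heme-degrading enzyme Hmox1 (r 0.98), followed by Ncf1 (0.98) and Nxpe4 (0.97). The genes most like Lpl were Car13, Col9a2 and Aifm2 (r 0.98 to 0.99), and those most like Clu were Fcgr3a (0.95), complement C3 (0.94) and Slc12a9 (0.91). Apoe was most like Ubtd1, Ccdc89 and Spon1 (r 0.92), and Spp1 was most like Sipa1, Lmo7 and Slc16a1 (r 0.99). The mean of the 10 genes was most like the lysosomal protease Ctsb (0.99), Epsti1, Tgif1, Nusap1 and Cdk1 (0.98).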

How the data were processed

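RNA was labelled with Cy3 and hybridised to Agilent SurePrint G3 Rat 8x60K arrays, 1 colour. The deposited intensity values are spot signals from which the authors' software (Feature Extraction 10.7.3.1 in the file headers) had subtracted the local background; no step between arrays was applied. The deposited log2 values of the authors served only as an alternative. The values include 0 or 1 flags that the authors' software set.

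Outlier-flagged spots were dropped, the log2 signals of a probe were averaged, and the array median was subtracted. A probe was well above background when over 50% of its spots were flagged so. This rule was settled after the data had been seen, and 2 other forms of it (all spots, at least 50%) were run as alternatives. A gene entered a comparison when well above background on at least 1 of the 2 arrays, with signals below the array's lowest well-above-background signal raised to it. Of several probes the brightest was used. Names came through RefSeq accessions and GRCr8, which matched 17936 of the 19118 NM probes. Ratios at least 2-fold in size were called. No test was run, as each condition had 1 array, and the number of arrays limits the precision; no spot was saturated. Both arrays of each comparison lay on 1 of 2 slides.

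The 10 genes, the 9 pathway lists and the 14 marker lists, and the rule naming the 3 list genes with the largest wild-type nerve ratio, were chosen with earlier results of these data known. The ratio step was tested on simulated data. Tried in their place were scaling to the 75th percentile, cyclic loess, quantile normalization, the authors' values, normexp (offset 50) on median spot signals, a filter on both arrays, neither filter nor floor, averaged probes, all spots including outliers, and a 3-fold threshold. Python 3.11.15 with pandas 2.3.3 and limma 3.58.1 in R 4.3.3 were used.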

Additional observations from a re-analysis of the deposited data

Results flagged for a closer look

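For 8 gene and tissue pairs the log2 ratios of wild-type and nude rats had opposite signs. With 1 array per condition the differences were not tested, and in DRG and cord rat type also goes with slide. How often all genes had opposite signs was not counted, so the number is not shown to be particular to these genes. Spp1 in the nerve was at 0.21 in wild-type and -0.50 in nude rats. In the DRG, Apoe was at -0.27 and 0.14, Apoc1 at -0.14 and 0.20, Abca1 at 0.23 and -0.32, Gpnmb at 0.51 and -0.10, and Clu at 0.14 and -0.08. In the cord, Apoe was at 0.0090 and -0.05 and Trem2 at -0.10 and 0.12. None of these values reached 2-fold.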

How the results depend on the processing

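No paired analysis was possible because each condition has 1 array and the labels carry no replicate numbers. Of 171 values recomputed for the summaries under other settings, 143 moved by less than the spot spread or stayed within 1.5 times the count. Of the other values recomputed, which include the log2 ratios of single genes, 760 stayed the same in that sense and 230 moved. The 2 other rules for a probe well above background, chosen after seeing the data, moved none of the 210 values recomputed with them. No ratio at least 2-fold in size changed sign. The cause was not tested for the shifts that follow.

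With normexp, the median log2 ratio of the 10 genes was 1.64 in wild-type nerve, 0.018 in nude nerve, 0.40 in wild-type DRG, 0.22 in nude DRG and -0.33 in wild-type cord, and 1 gene in nude nerve and 0 in wild-type cord were at least 2-fold higher. The median difference between rat types was then 1.56 in nerve, 0.17 in DRG and -0.23 in cord, where it had been 0.68, 0.04 and -0.01. With a 3-fold threshold, 2 genes in nude nerve and 0 in wild-type cord were higher. With the 75th percentile, the medians were 1.96 in wild-type and 1.45 in nude nerve, and the nerve difference was 0.46. With quantile normalization, they were 1.23 in nude nerve and 0.23 in wild-type DRG, with differences of 0.54 in nerve and 0.23 in DRG. With cyclic loess, they were 1.32 in nude nerve, 0.26 in wild-type DRG and -0.046 in nude DRG, with differences of 0.48 and 0.23. The authors' values gave 1.23 in nude nerve and 0.23 in wild-type DRG, with differences of 0.55 and 0.23. The dim injected nude nerve array, with 59.5% of its spots well above background against 70.8% on its control, limits the nude nerve ratios.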
